A study of Mus musculus with 105 samples.

Results

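The 9 genes described here, Eef1a1, Eef1b2, Eef1d, Eef1g, Eef1e1, Eef2, Eef2k, Etf1 and Gspt1, encode or regulate the factors that extend and release the growing peptide on cytosolic ribosomes. They were chosen by name, without a threshold on any value, and all 9 were found among the 20756 genes of the 2 expression tables. Of these, 8 also had a poly(A) tail length in at least 1 library. Ribosome footprints (Ribo-seq, the mRNA fragments that ribosomes protect from RNase I), polyadenylated mRNA (Smart-seq2) and poly(A) tails were measured in mouse oocytes. Metaphase II (MII) oocytes were the matured, ovulated stage, and full-grown oocytes (FGO) the stage before meiosis resumes. Single wild-type (WT) oocytes with footprints numbered 20 for MII and 18 for FGO. MII oocytes of Btg4 knockout (KO) genotype were set against MII oocytes of Btg4 heterozygous (Het) genotype, with 3 footprint libraries of each and 2 mRNA libraries of each. The 5 tail libraries came from MII Btg4 KO (2), MII Btg4 Het (1), MII WT (1) and FGO WT (1), and only the FGO of the tail library carry the label SN. Per the labels' protocols donors were C57BL/6 females aged 8 weeks or 5 weeks, injected with 5 IU of PMSG and 5 IU of hCG. The labels list this alike for all groups, so whether FGO donors received hCG as MII donors did cannot be told. Which females gave which library, how many oocytes a library pooled and which part of Btg4 was removed are not stated in the labels, and no wild-type MII oocytes stand beside the Het in the expression comparison.

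In elongation, eEF1A (Eef1a1) delivers aminoacyl-tRNA to the ribosome and is recharged with GTP by the eEF1B complex, whose subunits are encoded by Eef1b2, Eef1d and Eef1g. eEF2 (Eef2) then moves the ribosome by a codon, and the kinase eEF2K (Eef2k) inhibits it by phosphorylation, while eRF1 (Etf1) reads the stop codon and releases the peptide together with the GTPase eRF3a (Gspt1). Eef1e1, also called AIMP3 or p18, is a scaffold protein of the multisynthetase complex of aminoacyl-tRNA synthetases. Oocytes make little new mRNA after full growth, so the stored messages are translated, re-adenylated or degraded in turn, and Btg4 links the CCR4-NOT deadenylase to the messages that are removed during maturation.

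Promoter sequence was found for 6 of the 9 genes in RefSeq (GRCm38.p6). The bases around the start are shown for the eEF1A and eEF2 genes, both with lower footprint levels in MII oocytes than in FGO, and for Eef1e1, the member with the largest rise in Btg4 KO oocytes. Capitals mark the letters TATAA, searched on both strands, which 24.9% of 32851 promoter windows of 300 bases hold.
Eef1a1, chr9:78481684-78481713, minus strand: gggggagaacggtaTATAAgtgcggcagtc
Eef2, chr10:81176591-81176630, plus strand: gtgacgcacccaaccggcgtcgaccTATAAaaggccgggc
Eef1e1, chr13:38659029-38659068, minus strand: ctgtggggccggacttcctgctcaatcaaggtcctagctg
The Eef2 and Eef1e1 stretches end at the base before the annotated start, and the Eef1a1 stretch lies just inside the annotated first exon. Of the 6 genes, Eef1a1 and Eef2 held TATAA in the searched window, while Eef1b2, Eef1e1, Gspt1 and the 3 annotated starts of Eef2k did not.

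Depth differed between the stages. The depth of a library relative to the median FGO, recovered from the spacing of low values, was 0.195 to 0.762 in MII oocytes (median 0.263) and 0.484 to 2.09 in FGO. Genes with at least 1 FPKM (fragments per kilobase of gene, scaled to library size) numbered 3645 to 6351 per MII oocyte and 4338 to 8826 per FGO. In the Btg4 set they numbered 7062 to 8398 in KO and 5899 to 7588 in Het footprint libraries, and 8814 to 9151 in KO and 7959 to 8494 in Het mRNA libraries. All 10 oocyte markers (among them Zp3, Gdf9 and Mos) were above a mean of 1 FPKM in every group. MII oocytes 2 and 4 correlated better with FGO than with the other MII oocytes. Footprints of Btg4 itself measured 1148, 971 and 907 FPKM in KO against 7009, 6346 and 6134 FPKM in Het oocytes, a log2 change of -2.69 (SE 0.23, limma adjusted p = 0.00654). Btg4 mRNA measured 1754 and 2345 FPKM in KO against 3293 and 4774 FPKM in Het oocytes, a log2 change of -0.97. This change did not pass (limma adjusted p = 0.0889) but did with the replicate block (limma adjusted p = 0.00812). FPKM values are scaled per library, so less RNA of a gene per oocyte and a larger total of other RNA cannot be told apart. Summed over all genes, FPKM still ranged over 144559 to 598538 per MII oocyte and 76465 to 677515 per FGO. The spread of FPKM between single oocytes includes this difference in scale.

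Footprint levels in single oocytes address how far the translation of these genes differs between MII and FGO. Levels of the eEF1A, eEF1B and eEF2 genes and of Etf1 were lower in MII oocytes, those of Gspt1 were close at both stages, and those of Eef2k were higher in MII oocytes. Because the oocytes are single cells of unnamed animals, MII and FGO count as 1 sample each and were compared without a test. Ratios are log2 of mean FPKM plus 1 in MII oocytes over the same in FGO, which understates the change of low genes. By this measure 6 of the 9 members were at least 2-fold lower in MII oocytes, beside 31.3% of the 8788 genes that averaged 1 FPKM or more. None of the 9 was at least 2-fold higher, beside 27.9% of those genes. The median ratio was -1.73 for the 9 members and -0.15 for all 8788 genes.

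Eef1a1 footprints ranged over 0 to 259 FPKM in MII oocytes (median 20.8) and over 50.0 to 614 FPKM in FGO (median 249.9). The means were 46.3 ± 65.1 FPKM in MII oocytes and 265 ± 170 FPKM in FGO (SD between 20 and 18 oocytes), a log2 ratio of -2.49. The stages overlapped, with the MII oocyte lower in 94.2% of MII and FGO pairs. The highest MII levels, 158 and 259 FPKM, were those of MII oocytes 2 and 4, and the other 18 MII oocytes lay between 0 and 107 FPKM. Without these 2 oocytes the log2 ratio was -3.19. Eef1a1 values were not whole multiples of the value of 1 read, so its read count could not be recovered. The same held for Eef1d and Gspt1 in single oocytes, and the cause was not tested. Eef1a1 has processed pseudogenes, and the split of reads with these copies is uncertain.

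The eEF1B genes had the same direction at lower levels. Eef1b2, the nucleotide exchange subunit, ranged over 0 to 92.5 FPKM in MII oocytes (median 10.3) and 0 to 265 FPKM in FGO (median 33.3), a log2 ratio of -1.74. Eef1d, a second exchange subunit, ranged over 0 to 86.4 FPKM in MII oocytes (median 6.56) and 9.46 to 207 FPKM in FGO (median 57.0), a ratio of -1.92. Here too MII oocytes 2 and 4 were the highest of their stage, at 65.6 and 86.4 FPKM, and the ratio without them was -2.59. Eef1g, the structural subunit, was above 0 in 10 of 20 MII oocytes (highest 10.2 FPKM) and in 16 of 18 FGO (highest 72.6 FPKM), a ratio of -2.03. It rested on 16 reads over all MII oocytes and on 267 reads over all FGO.

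Eef2, the translocase gene, ranged over 0 to 27.9 FPKM in MII oocytes (median 5.63) and 4.31 to 78.7 FPKM in FGO (median 23.6), a log2 ratio of -1.63. MII oocytes were lower in 84.4% of pairs. The summed level of Eef1a1, Eef1b2, Eef1d, Eef1g and Eef2 had a median of 51.8 FPKM per MII oocyte and 381 FPKM per FGO. Within that sum the median share of Eef1a1 was 48.0% in MII oocytes and 64.0% in FGO.

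Eef2k, whose product inhibits eEF2, was the member with the highest median footprint level in MII oocytes and only the fifth highest in FGO. It ranged over 8.66 to 107 FPKM in MII oocytes (median 32.9) and 4.56 to 86.8 FPKM in FGO (median 16.0). The means were 36.3 ± 24.1 FPKM in MII oocytes and 23.0 ± 21.4 FPKM in FGO (SD between oocytes), a ratio of 0.64. The stages overlapped widely, with the MII oocyte higher in 72.2% of pairs and 17 of 20 MII oocytes above the FGO median. Scaling each oocyte to the 600 genes above 0 in all oocytes shifted the median of all genes to -1.09 and turned the Eef2k ratio to -0.45, above that median in either scaling.

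The release factor genes differed from each other. Etf1 footprints were above 0 in 6 of 20 MII oocytes (highest 22.9 FPKM, 19 reads in all) and in 17 of 18 FGO (median 9.14, highest 38.4 FPKM, 248 reads in all), a log2 ratio of -1.73. In the median MII oocyte 1 read of Etf1 was worth 3.79 FPKM, against 1.00 FPKM in the median FGO, so low levels were not detectable in MII oocytes at this depth. Gspt1, by contrast, was above 0 in every oocyte, from 1.48 to 36.3 FPKM in MII oocytes (median 8.30) and from 0.594 to 39.3 FPKM in FGO (median 9.61). Its ratio was -0.29 and the MII oocyte was lower in 53.6% of pairs. Eef1e1 was above 0 in 3 of 20 MII oocytes and 5 of 18 FGO, with 4 and 12 reads in all, too few to compare the stages.

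**Figure D1:**
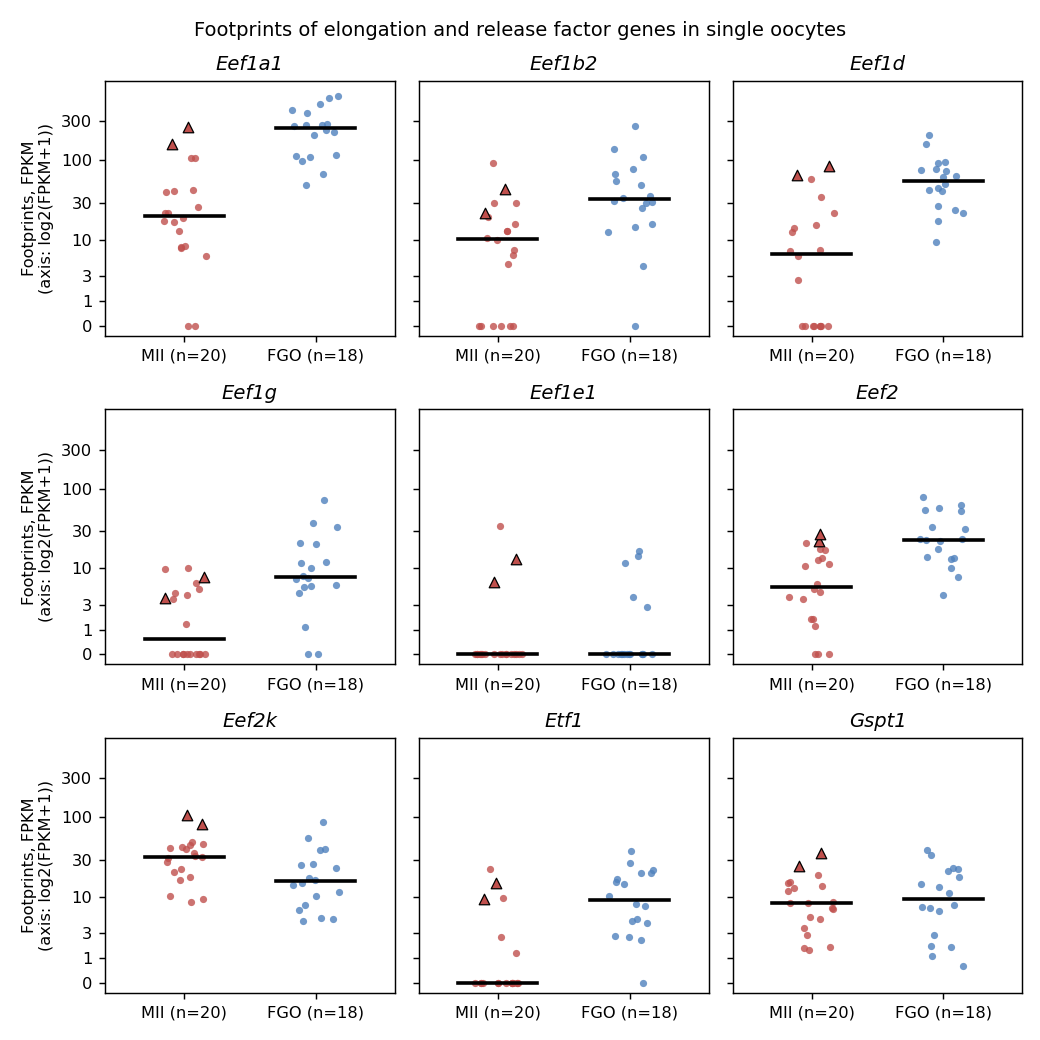
Footprint level of each gene in single oocytes, with MII left of FGO, in FPKM on a log2(FPKM + 1) axis. Points are oocytes, triangles are MII oocytes 2 and 4, and black lines are medians. Eef1a1 has medians of 20.8 FPKM in MII oocytes and 249.9 FPKM in FGO, whereas Eef2k has medians of 32.9 and 16.0 FPKM.

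By median footprint level, which is per length, the order in MII oocytes ran from Eef2k (32.9 FPKM) over Eef1a1 (20.8), Eef1b2 (10.3), Gspt1 (8.30), Eef1d (6.56) and Eef2 (5.63) to Eef1g (0.669), with Etf1 and Eef1e1 at a median of 0. In FGO the order of medians was Eef1a1 (249.9 FPKM), Eef1d (57.0), Eef1b2 (33.3), Eef2 (23.6), Eef2k (16.0), Gspt1 (9.61), Etf1 (9.14), Eef1g (7.67) and Eef1e1 (0). The ranges of neighbours overlapped over the oocytes in both orders. The SD between oocytes was 141% of the mean for Eef1a1 in MII oocytes and 64.0% of it in FGO, and for Gspt1 83.0% in MII oocytes and 87.7% in FGO.

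Markers of other cells also differed between the stages. The summed FPKM of 15 follicle cell markers was 70.7 to 227 in MII oocytes, where 4 of the 15 had a mean of at least 1 FPKM, and 0.918 to 115 in FGO, where 9 of the 15 did. Fshr, Krt8 and Has2 were at 0 in all MII oocytes, and Has2 in all FGO. Blood markers summed to 0 to 127 FPKM in MII oocytes and 0 to 898 FPKM in FGO, and a hemoglobin gene was listed above 0 in 1 MII oocyte and 9 FGO. Leaving those oocytes out gave ratios of -2.19 for Eef1a1, -0.81 for Eef1b2, -1.86 for Eef1d, -1.24 for Eef2 and 0.74 for Eef2k. Eef1b2 was then less than 2-fold lower in MII oocytes. The part of follicle cell RNA in these differences was not tested.

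Other genes of the pathway, taken as 5 lists, moved in both directions between the stages. The counts below stand beside 31.3% of all 8788 genes at least 2-fold lower in MII oocytes and 27.9% at least 2-fold higher. Of 7 further cytosolic elongation genes, 5 reached a mean of 1 FPKM, of which 2 were at least 2-fold lower in MII oocytes (Gtpbp2 -1.87, Eefsec -1.23) and 2 at least 2-fold higher (Secisbp2 1.95, Gtpbp1 1.04). Of 14 further termination, rescue and recycling genes, 12 reached that mean, with 5 lower and 3 higher. Gspt2, the paralog of Gspt1, averaged 6.55 ± 9.43 FPKM in MII oocytes and 16.4 ± 11.7 FPKM in FGO, a ratio of -1.20. Hbs1l, a rescue factor that acts with Pelo on stalled ribosomes, was above 0 in 20 of 20 MII oocytes and 11 of 18 FGO, a ratio of 1.99, and Pelo had a ratio of 1.04. Genes whose products modify elongation factors (7 of 14 reaching that mean) had 2 lower and none higher, led by the diphthamide synthesis gene Dph3 at -3.44. Mitochondrial elongation and release genes (9 of 10) had 3 lower and 2 higher, and multisynthetase genes (10 of 11) 4 lower and 1 higher.

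The comparison of Btg4 KO with Het MII oocytes asks what happens to the same genes when an adaptor of mRNA deadenylation is lost. In mRNA, Eef1e1, Eef1a1 and Eef1d rose in KO oocytes. The other 6 members did not pass the test, although Eef1b2 and Gspt1 did with the replicate block. Only polyadenylated mRNA was measured, and whether tail length affected its capture was not tested. The 3 calls stand beside 18.9% of 8865 tested genes that rose (1677 genes), and the 0 members that fell beside 0.62% that fell (55 genes). At an unadjusted p below 0.05, 4 members were higher and 0 lower (limma). The median log2 change was 0.63 over the 9 members and 0.14 over all genes. This split of calls depends on scaling: 988 genes rose and 939 fell when libraries were scaled to their shared genes, and 1103 rose and 644 fell with quantile normalization, and the 3 members rose under both.

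Eef1e1 mRNA measured 319 and 448 FPKM in KO against 33.4 and 49.2 FPKM in Het oocytes. Both KO libraries were far above both Het libraries, with means of 384 ± 90.7 FPKM in KO and 41.3 ± 11.2 FPKM in Het oocytes (SD, n = 2 each), a log2 change of 3.19 (SE 0.33, limma adjusted p = 0.000873). Eef1a1 mRNA measured 167 and 179 FPKM in KO against 41.0 and 19.3 FPKM in Het oocytes. The rise was 2.58 in log2 (SE 0.39, limma adjusted p = 0.00314), and the adjusted p was 0.0547 without a filter on low values. For Eef1d, mRNA measured 23.3 and 24.1 FPKM in KO against 4.53 and 3.84 FPKM in Het oocytes, and rose by 2.25 (SE 0.34, adjusted p = 0.00317, limma). With 1 of the 4 libraries left out, the log2 change of Eef1e1 ranged over 2.92 to 3.46. That of Eef1a1 ranged over 2.05 to 3.10, and that of Eef1d over 2.16 to 2.35. Each such fit leaves 1 library in a group, so its calls are not counted here.

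The remaining eEF1B subunits, eEF2 and its kinase had smaller differences in mRNA. Eef1b2 measured 38.8 and 35.6 FPKM in KO against 17.4 and 26.0 FPKM in Het oocytes, without overlap, a log2 change of 0.78 (adjusted p = 0.144, limma). Eef1g stayed near the filter, at 2.36 and 1.08 FPKM in KO against 1.31 and 0.752 FPKM in Het oocytes. Eef2 measured 4.69 and 2.61 FPKM in KO against 5.71 and 0.896 FPKM in Het oocytes, and Eef2k 12.8 and 8.08 FPKM in KO against 10.6 and 4.94 FPKM in Het oocytes. These 3 genes overlapped between the genotypes.

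Of the release factor messages, Gspt1 measured 8.21 and 8.14 FPKM in KO against 5.75 and 4.21 FPKM in Het oocytes, a change of 0.63 (adjusted p = 0.248, limma). Etf1 measured 27.6 and 18.8 FPKM in KO against 22.0 and 12.5 FPKM in Het oocytes, a change of 0.43 (adjusted p = 0.460, limma) with overlap. In all, 5 members had every KO library above every Het library, beside 38.9% of tested genes, and none had every KO library below, beside 22% of tested genes.

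**Figure D2:**
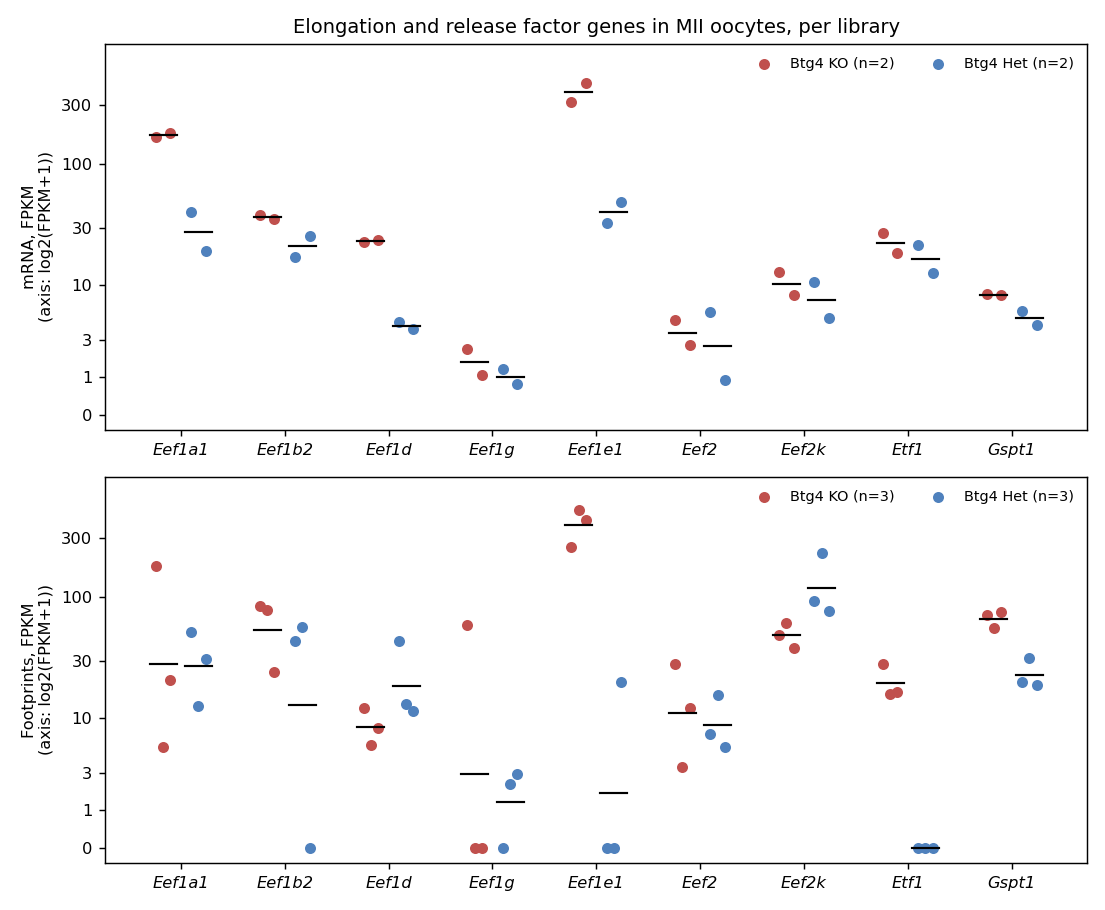
Level of each gene in every library of Btg4 KO and Het MII oocytes, in FPKM on a log2(FPKM + 1) axis, mRNA above and footprints below. Points are libraries, with KO left of Het, and lines are means on the log scale. Eef1e1 stands apart in both panels, and Etf1 footprints are at 0 in the 3 Het libraries and between 16.0 and 28.8 FPKM in KO.

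Footprints gave a different set of members. Eef1e1 and Etf1 rose in KO oocytes, and no member fell, beside 3.21% of 8526 tested genes that rose (274 genes) and 0.328% that fell (28 genes). Etf1 was at 0 in all 3 Het libraries and passed the filter on low values through KO alone, so its call carries little weight. At an unadjusted p below 0.05, 3 members were higher and 1 lower (limma). The median log2 change was 0.75 over the 9 members and 0.27 over all genes. With any 1 of the 3 KO libraries left out, no gene of the whole table passed in limma, and 879 to 970 genes were higher at an unadjusted p below 0.05.

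Eef1e1 footprints measured 256, 503 and 420 FPKM in KO against 0, 0 and 20.2 FPKM in Het oocytes. In recovered reads these were 36, 100 and 87 in KO and 0, 0 and 2 in Het libraries. The ratio of KO to Het, by reads and depth, was 98.7 with an exact 95% interval of 27.0 to 820, which covers counting error only. Eef1e1 rose by 7.10 on the log2(FPKM + 1) scale, a size that depends on the pseudocount (SE 1.19, adjusted p = 0.0299, limma). Its adjusted p was 0.0770 with a pseudocount of 0.1 and 0.0518 without a filter, and it passed in 1 of the 6 fits that leave out a library.

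Etf1 footprints measured 28.8, 16.0 and 16.8 FPKM in KO oocytes (14, 11 and 12 reads) and were at 0 in all 3 Het libraries. Against a floor of 3 reads in each Het library, a mean of 6.29 FPKM, the KO mean was at least 3.27-fold higher. The fitted change was 4.38 (SE 0.59, adjusted p = 0.0183, limma), a size set by the pseudocount (7.63 with a pseudocount of 0.1). Etf1 passed the filter on low values through its KO libraries alone, so the call carries little weight. The call held in 2 of the 6 fits that leave out a library. Gspt1, the partner of Etf1, measured 71.2, 55.8 and 75.8 FPKM in KO against 20.3, 32.0 and 19.0 FPKM in Het oocytes. The genotypes did not overlap, but the change of 1.50 did not pass (SE 0.40, adjusted p = 0.110, limma). Its paralog Gspt2 measured 61.3, 141 and 93.6 FPKM in KO against 16.6, 11.7 and 28.7 FPKM in Het oocytes, a change of 2.33 (adjusted p = 0.0615, limma), and reads of the 2 genes may be split.

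Eef2k had the opposite direction. Its footprints measured 49.8, 62.3 and 38.5 FPKM in KO against 92.7, 227 and 77.3 FPKM in Het oocytes, every KO library below every Het library, with a change of -1.24 that did not pass (SE 0.50, adjusted p = 0.253, limma). Eef2 itself measured 28.4, 3.40 and 12.1 FPKM in KO against 7.17, 15.7 and 5.46 FPKM in Het oocytes, with overlap. Members with every KO library above every Het library numbered 3 (Eef1e1, Etf1 and Gspt1), beside 16.8% of tested genes, and 1 (Eef2k) had every KO library below, beside 7.69%. Of the 3, Etf1 passed the filter on low values through KO alone.

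The eEF1A and eEF1B genes overlapped between the genotypes in footprints. Eef1a1 measured 179, 5.45 and 20.9 FPKM in KO against 52.1, 12.5 and 31.5 FPKM in Het oocytes, a change of 0.04 (SE 1.21, adjusted p = 0.993, limma). Eef1d measured 12.0, 5.67 and 8.16 FPKM in KO against 44.2, 13.0 and 11.4 FPKM in Het oocytes, a change of -1.10 (adjusted p = 0.446, limma). In recovered reads, Eef1d had 3, 2 and 3 in KO and 20, 3 and 2 in Het libraries. Eef1b2 measured 84.3, 78.4 and 24.5 FPKM in KO against 43.9, 57.5 and 0 FPKM in Het oocytes. Eef1g measured 59.7, 0 and 0 FPKM in KO against 0, 2.23 and 2.92 FPKM in Het oocytes, so that its KO mean came from 29 reads of replicate 1 alone. KO replicate 1 was also the highest of the 6 libraries for Eef1a1 and Eef2, and without it the changes were -1.26 for Eef1a1, -1.22 for Eef1g and -0.34 for Eef2.

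Summed follicle cell markers were 412 to 556 FPKM in KO and 240 to 419 FPKM in Het footprint libraries, and 269 to 310 FPKM in KO and 358 to 442 FPKM in Het mRNA libraries. Of the 15 markers, 12 were at 0 in all KO and 10 in all Het footprint libraries, among them Inha, Amh, Fshr and Foxl2 in both genotypes. Serpine2 made up most of the sums, with mean footprints of 439 FPKM in KO and 273 FPKM in Het oocytes. Blood markers summed to at most 3.64 FPKM in KO and 20.4 FPKM in Het footprint libraries, and to 0.105 and 14.7 FPKM in KO against 0 and 0.0990 FPKM in Het mRNA libraries, where Lyz2 alone gave 14.6 FPKM in KO replicate 1. Krt8 mRNA averaged 2.30 FPKM in KO and 0.676 FPKM in Het oocytes, and so passed the filter on low values through KO alone. This follicle marker rose in mRNA (adjusted p = 0.0497, limma). The part of follicle and blood cell RNA in the changes of the members was not tested.

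To compare footprints with mRNA, the difference between the 2 changes was tested in 1 model over the 10 libraries. Etf1 rose in this efficiency and no member fell, beside 0.853% of 7382 tested genes that rose (63 genes) and 0.447% that fell (33 genes). The Etf1 difference was 3.95 in log2 (SE 0.71, limma adjusted p = 0.0418), and the adjusted p was 0.0603 with the replicate number as a block. This size too is set by the pseudocount, with a value of 7.18 at a pseudocount of 0.1. Here too Etf1 passed the filter on low footprint values through its KO libraries alone, so the call carries little weight. The call held in 3 of the 10 fits that leave out a library, and with any 1 mRNA library left out no gene of the table passed in limma, where 357 to 474 genes were higher at an unadjusted p below 0.05. At that unadjusted level 2 members were higher and 1 lower in the fit to all libraries.

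For Eef1e1 the change in footprints exceeded that in mRNA by 3.91 (SE 1.65, adjusted p = 0.332, limma), and without Het footprint replicate 3, the library with its only Het reads, by 5.38 (adjusted p = 0.0158, limma). For Eef1d and Eef1a1, whose mRNA rose without a call in footprints, the differences were -3.35 (SE 0.88, adjusted p = 0.119, limma) and -2.53 (SE 1.69, adjusted p = 0.584, limma). With array weights the Eef1d value was -3.69 (adjusted p = 0.0209, limma). Its footprints rest on 8 reads in KO and 25 in Het libraries, 20 of them in Het replicate 1. The differences were -1.67 for Eef2k (adjusted p = 0.395, limma) and 0.87 for Gspt1 (adjusted p = 0.584, limma), and neither passed.

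**Figure D3:**
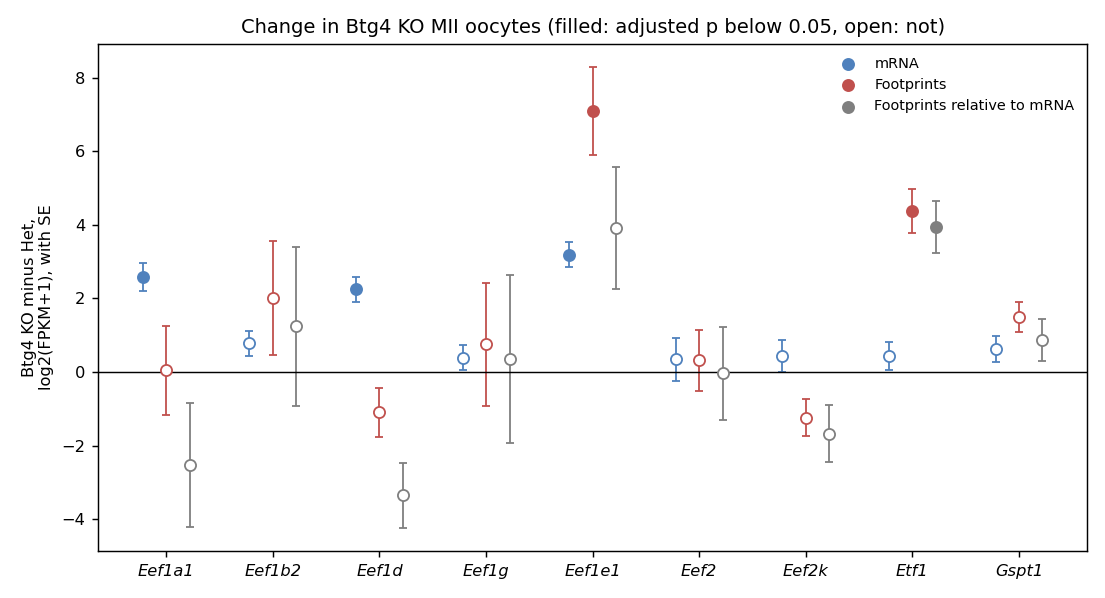
Change of each gene in Btg4 KO relative to Het MII oocytes, on the log2(FPKM + 1) scale with its SE, for mRNA, for footprints and for footprints relative to mRNA. Filled points have an adjusted p below 0.05 and open points do not. Eef1e1 is filled in mRNA (3.19) and footprints (7.10), Eef1a1 and Eef1d only in mRNA, and Etf1 only in footprints (4.38) and in footprints relative to mRNA (3.95).

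The level of footprints relative to mRNA, from group means and per length, ranked the members differently in the 2 genotypes. In KO oocytes log2 of footprints over mRNA was 2.94 for Eef1g (from KO replicate 1 alone), 2.90 for Gspt1, 2.16 for Eef2k, 1.75 for Eef2, 0.04 for Eef1e1 and -0.17 for Etf1, beside a median of 0.32 over 7382 genes. In Het oocytes it was 3.93 for Eef2k, above 98.1% of those genes, 2.05 for Gspt1, -2.45 for Eef1e1 and -4.19 for Etf1, which only 1.21% of genes were below, beside a median of 0.23. The Etf1 value rests on 0 Het footprint reads, so the pseudocount and the mRNA level set it and its rank. The Eef1e1 value rests on 2 Het footprint reads. Eef1a1 stood at -1.33 in KO and 0.08 in Het oocytes, and Eef1d at -1.36 in KO and 2.20 in Het oocytes. The Eef1d values rest on 8 footprint reads in KO and 25 in Het libraries, 20 of them in Het replicate 1.

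Tail lengths were available for few genes in MII oocytes, and with 1 or 2 libraries per group no test was made. Eef1e1 had tails of 76.9 and 134 nucleotides in the 2 MII Btg4 KO libraries, longer than those of 84.8% and 95.8% of the genes there. In FGO its tail was 28.5 nucleotides, and 1.64% of 6353 genes had shorter ones. The difference of KO from FGO was 48.4 and 106 nucleotides, whereas the median over 837 and 1356 shared genes was -15.6 and -12.5 nucleotides.

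Eef1a1 showed the reverse, with 31.2 and 20.1 nucleotides in the KO libraries against 66.3 nucleotides in FGO, differences of -35.1 and -46.2. Eef2 had 19.1 nucleotides in KO library 2 and 53.6 nucleotides in FGO, and Eef2k 36.9 and 43.4 nucleotides in KO and 55.2 nucleotides in FGO. Gspt1 had 69.6 nucleotides in KO library 1 and 64.3 nucleotides in FGO. Etf1 (71.1 nucleotides), Eef1b2 (64.3) and Eef1d (64.0) had values in FGO only, and Eef1g in no library. The median tail of all genes was 42.4 and 43.1 nucleotides in the KO libraries and 54.1 nucleotides in FGO.

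No member had a value in the MII Het library (598 genes) or the MII WT library (229 genes), so no single library of MII oocytes with Btg4 gives a tail to set beside those of KO. In the authors' deposited table, the merged MII WT and Het column lists Eef1a1 at 29.7 nucleotides, and the merged KO column lists it at 22.7 nucleotides. The same column of that table, the authors' deposited table, lists Eef1e1 at 96.2, Gspt1 at 69.4, Eef2k at 39.8 and Eef2 at 20.4 nucleotides.

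**Figure D4:**
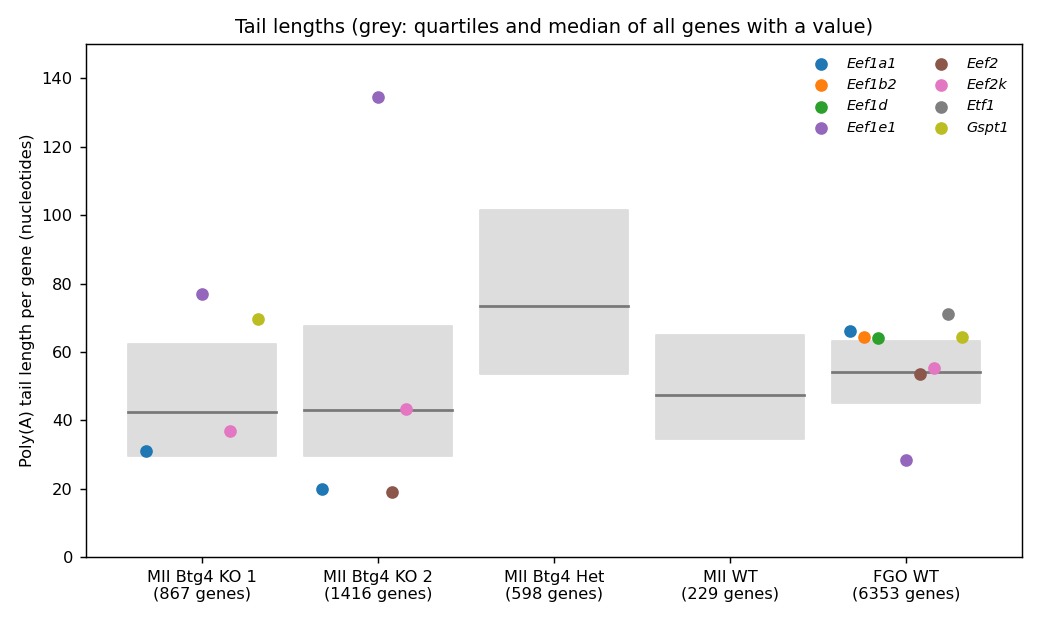
Poly(A) tail length per gene, in nucleotides, for the members with a value in each library, with the quartiles (grey) and the median (line) of all genes with a value. Libraries run from MII Btg4 KO to FGO WT. Eef1e1 is at 76.9 and 134 nucleotides in KO and 28.5 in FGO, and Eef1a1 at 31.2 and 20.1 in KO and 66.3 in FGO.

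The wider pathway was followed in the Btg4 comparison with the same 5 lists. Over all genes 18.9% of tested messages rose, and the mRNA counts of the lists stand beside that share. Multisynthetase genes, partners of Eef1e1, had 4 of 10 tested messages that rose: Rars 3.27, Qars 2.99, Dars 1.78 and Iars 1.39 on the log2 scale, which encode arginyl-, glutaminyl-, aspartyl- and isoleucyl-tRNA synthetases. With median scaling Iars lost its call and Eprs fell, which left 3 higher and 1 lower. Rars mRNA measured 108 and 117 FPKM in KO against 9.69 and 11.9 FPKM in Het oocytes, and its footprints 110, 128 and 77.6 FPKM in KO against 31.9, 18.1 and 12.8 FPKM in Het oocytes. It was the 1 of 8 tested multisynthetase genes that rose in footprints (2.34, adjusted p = 0.0487, limma), beside 3.21% of all tested genes, while Qars fell by 3.26 in footprints relative to mRNA (adjusted p = 0.0421, limma). The footprint call of Rars was lost with a pseudocount of 0.1, without a filter, with quantile normalization, with array weights and in 5 of the 6 fits that leave out a library.

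Of the genes that modify elongation factors, 5 of 6 tested messages rose: Dph7 2.08, Dph3 1.52 and Dph5 1.49, which act in the synthesis of the diphthamide residue of eEF2, and Eef1akmt1 1.67 and Eef1akmt2 1.47, which encode lysine methyltransferases of eEF1A. Of these, 3 passed the filter on low values through the KO libraries alone, namely Eef1akmt1 (Het mean 0), Dph5 (Het mean 0.214 FPKM) and Eef1akmt2 (Het mean 0.672 FPKM), so the count carries no weight, and 8 of the 14 listed genes did not pass that filter. The calls were 4 with median scaling and 3 with quantile normalization. Dph3 footprints measured 39.3, 89.6 and 86.0 FPKM in KO oocytes and were at 0 in all Het libraries (adjusted p = 0.00669, limma), so they passed the filter through KO alone. Dph3 also rose relative to its mRNA (adjusted p = 0.0264, limma). With the replicate block neither Dph3 nor Qars passed in footprints relative to mRNA.

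Mitochondrial factors had 3 of 8 tested messages that rose (Mtrf1 2.65, Mrrf 1.89 and Mrpl58 1.80, the last lost with median scaling and with quantile normalization) and none of 5 in footprints (0 also at an unadjusted p below 0.05, limma), where the largest changes were -1.82 for Mrrf and 0.86 for Gfm2. Termination and rescue genes had 1 of 12 that rose in mRNA, Mcts1 at 1.22, which averaged 2.63 FPKM in KO and 0.532 FPKM in Het oocytes and so passed the filter through KO alone, and whose call was lost with median scaling and with quantile normalization. They had none of 12 in footprints (1 at an unadjusted p below 0.05, limma), where Gspt2 (2.33) and Denr (2.06) had the largest changes. None of 4 further elongation messages passed (0 also at an unadjusted p below 0.05, limma), with Gtpbp1 at -0.67 and Secisbp2 at -0.63. In footprints none of 5 passed (1 at an unadjusted p below 0.05, limma), with Eefsec at -2.02 and Eif5a2 at 1.41. Eif5a2 footprints measured 17.7 FPKM in KO replicate 1 and 0 in every other library, so it passed the filter through KO alone. No list gene fell in mRNA or footprints as deposited, but with median scaling 3 list genes fell in mRNA (Secisbp2, Gfm1 and Eprs), with quantile normalization Secisbp2 and Eprs, and with the replicate block 5 (Gtpbp1, Secisbp2, Nemf, Gfm1 and Eprs). Without a filter on low values the mRNA calls were 3 multisynthetase genes (Rars, Qars and Dars), Mtrf1, and none of the other lists, where 4 termination and 9 modification genes were higher at an unadjusted p below 0.05.

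Among genes that averaged 10 FPKM or more, those most like Eef1e1 over the 10 Btg4 libraries, by Pearson r of log2(FPKM + 1), were Snrnp40 (0.995), Gtf2e2 (0.990) and Psmd12 (0.967). Those most like Eef1a1 there were Actg1 (0.959), Naca (0.926) and Rpl5 (0.921). Over the 38 single oocytes they were Ubb (0.931), Zp3 (0.926) and Ooep (0.915), with Ubb at a mean of 322 FPKM in MII oocytes and 1300 FPKM in FGO. The points share library, assay, genotype and stage, so these values describe likeness only. Eef1e1 was below the mean of 10 FPKM in single oocytes.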

How the data were processed

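The authors deposited footprint and mRNA levels as FPKM. The submitters' processing notes list Cufflinks 2.2.1, STAR 2.5.3a, Bowtie2 2.2.2, Trim Galore 0.4.2 and cutadapt 1.14, and hg19 and mm9 as builds, without saying what each was used for. Tail lengths were deposited by the authors as 1 score per gene, in nucleotides, where 0 is no value, and neither the tail caller nor the read minimum is given in the sources used here. No strand or multi-mapping rule is given either, so reads shared with paralogs or pseudogenes are uncertain. Of 105 labelled samples 53 were used and 52 were not analysed here. In the table of Btg4 libraries, 231 repeated rows were dropped.

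KO and Het libraries were compared with limma 3.58.1 (trend, two-sided, R 4.3.3) on log2(FPKM + 1), over genes that averaged 1 FPKM or more, with Benjamini-Hochberg adjustment and a threshold of 0.05. Efficiency is the interaction of genotype and assay over 10 libraries. The fit was tested on simulated data with independent noise in each library. That test does not cover effects shared by same-numbered libraries or differences in scale between libraries. Since no animal or culture is tied to a library in the labels, a p-value here speaks only of the spread between these samples, possibly technical. Deviations of same-numbered footprint libraries from their group means had correlations of 0.255, 0.422 and 0.162, and those of differently numbered libraries -0.319 to 0.0977. The numbers may therefore pair the same-numbered samples. The main fits leave the numbers out, and the replicate block was run as an alternative. Reads were recovered where values were whole multiples within 0.03, with divisors up to 12. The exact interval on a ratio is at 95%.

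The text names all 9 members and Btg4, list genes past the threshold or otherwise the 2 largest changes, and the 3 genes most like Eef1a1 and Eef1e1. In single oocytes, where no test was made, Gspt2, Hbs1l, Pelo and Dph3 were named after their values were seen, as were Dph3 and Gspt2 levels per library. Members, lists and tests were chosen with earlier results of these data known. Other steps used Python 3.11.15 with pandas 2.3.3, numpy 2.4.6 and, for plots, matplotlib 3.10.9.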

Additional observations from a re-analysis of the deposited data

Results flagged for a closer look

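The change of Etf1 in Btg4 KO relative to Het oocytes differed between footprints and mRNA by 3.95 on the log2 scale (adjusted p = 0.0418, limma, interaction over 10 libraries). It was picked out because the test of the difference itself passed. However, Etf1 passed the filter on low footprint values through its KO libraries alone, so the call carries little weight. With a pseudocount of 0.1 the value was 7.18. Over the alternatives its adjusted p reached 0.275, and the values behind it are 37 reads in 3 KO libraries and 0 reads in 3 Het libraries.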

How the results depend on the processing

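The number of members that rose in mRNA was 2 without a filter, where Eef1a1 was lost. It was 3 in the other settings that kept all libraries, except the replicate block. The block gave 5, adding Eef1b2 (adjusted p = 0.0287, limma) and Gspt1 (adjusted p = 0.0404, limma). Btg4 itself also passed with it (adjusted p = 0.00812, limma), and 3033 genes were higher and 1553 lower in the table. Its 2 pairs of mRNA libraries correlated at 0.627, which 2 pairs fix. In footprints 2 members rose as reported, 1 with a pseudocount of 0.1 and 1 with no filter, and 0 to 1 with a library left out. In efficiency 1 member rose as reported, 0 with no filter and 0 with the replicate block (27 genes higher in the table), and 0 to 2 with a library left out, while array weights gave 1 member lower. The replicate block changed no call of a member in footprints. Members without a call changed sign as follows. In mRNA, Eef2k was -0.0175 and Etf1 -0.0531 with median scaling and Eef2 -0.0230 with quantile normalization. In footprints, Eef1g was -0.0787 with a pseudocount of 0.1, Eef1a1 -0.12 with median scaling, -0.22 with quantile normalization and -0.34 with array weights, and Eef2 -0.0580 with quantile normalization. In efficiency, Eef1g was -0.71 with a pseudocount of 0.1, and Eef2 0.17 with median scaling and 0.18 with array weights. With a library left out, mRNA ranged over -0.57 to 1.26 for Eef2 and -0.0498 to 0.92 for Eef2k. Footprints ranged over -1.26 to 1.14 for Eef1a1, -1.22 to 1.74 for Eef1g and -0.34 to 1.03 for Eef2. Efficiency ranged over -1.61 to 1.35 for Eef1g, -0.94 to 0.88 for Eef2 and -0.66 to 2.28 for Eef1b2. Within the efficiency ranges the sign also turned for Eef1g at -0.25 without Het footprint replicate 1, and for Eef2 at 0.37 without Het footprint replicate 2, 0.69 without KO footprint replicate 2 and 0.30 without KO mRNA replicate 1. Leaving out an mRNA library leaves 1 in its group, which is then assumed to vary like the other group. The cause of these changes was not tested. Calls in the whole table numbered 555 higher without a filter in mRNA, and in footprints 145 higher without a filter, 177 with a pseudocount of 0.1, 155 with quantile normalization and 82 without Het replicate 3. Efficiency calls numbered 27 higher without a filter, 169 with median scaling and 176 with array weights. In single oocytes the median ratio of the members lay between -2.74 (median scaling) and -1.24 (without oocytes that list hemoglobin), and was -2.11 for each oocyte's share of its FPKM sum, an alternative added after seeing the data; the median of all genes ranged from -1.09 to 0.10. With 1 oocyte left out, Eef1e1 ranged over -0.89 to 0.35, and the other 8 members kept their direction.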
